A study of Mus musculus with 18 samples.

Results

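C/EBPβ binding at 12 and 24 hours post-induction (hpi) was compared in C10 cells, 1 library at each time. C10 is a mouse pre-B cell line derived from HAFTL cells that carries C/EBPα fused to the estrogen receptor and tagged with GFP, and β-estradiol brings the fusion into the nucleus and turns the cells into macrophage-like cells. The libraries of both times came from cells of this 1 line, induced and grown with IL-3 and CSF-1, and were precipitated with the same C/EBPβ antibody (sc-150). All 18 libraries of the time course carry the fusion, those of 0 hpi included, for which the protocol names ethanol as the control treatment. They comprise 8 libraries of C/EBPα, 5 of C/EBPβ and 5 of PU.1, and the other 16 libraries are used here only to describe the C/EBPβ sites.

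The sites were chosen by a rule that uses both libraries. Each read was moved by 75 bp toward the middle of its fragment, the 24 hpi library (3040876 reads on chromosomes 1 to 19) was thinned at random to the 2824293 reads of the 12 hpi library, and reads were counted in 200-bp bins of the mm9 genome. Bins with 6 or more reads in either library were compared. There were 9776 such bins among 12361703 (0.0791%), in 7481 runs of adjoining bins. A library of this depth has 0.236 reads per bin on average. Because 1 library stands for each time, no test between times is possible, and the ranges in brackets below are exact 95% binomial intervals that cover counting error only and compare 2 libraries, not 2 conditions. Neighbouring bins share fragments, so intervals over summed reads are narrower than they would be for independent sites.

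C/EBPβ is a leucine zipper transcription factor of the same family as C/EBPα. The family members bind DNA as dimers, with each other and with some other leucine zipper factors such as ATF4, and recognize nearly the same palindromic letters. In macrophages C/EBPβ is best known as an activator of inflammatory genes, such as those of interleukin-6 and interleukin-1β, and it often occupies enhancers together with PU.1, the main transcription factor of myeloid cells, and with AP-1 factors.

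At 24 hpi more of the genome reached the count of 6, and most sites of 12 hpi were retained. Of the compared bins 4546 had 6 or more reads at 12 hpi and 8717 at 24 hpi. The 3487 bins that reached 6 reads at both times were 76.7% of those at 12 hpi and 40% of those at 24 hpi. The median bin had 5 reads at 12 hpi and 8 at 24 hpi, and more reads were found at 24 hpi in 7827 bins (80.1%) and at 12 hpi in 1605 (16.4%). Summed over all compared bins, 59626 reads at 12 hpi stood against 99358 at 24 hpi, a ratio of 1.67 (1.65 to 1.68), while reads outside bound bins had a ratio of 0.982. The direction rests on scaling by library reads or by reads outside bound bins: scaled to the median ratio of the compared bins themselves the summed ratio was 0.952. The compared bins held 2.11% of the reads at 12 hpi and 3.52% at 24 hpi. More factor on the DNA, a larger share of cells that carry it and a precipitation that worked better at 24 hpi cannot be told apart with 1 library a time.

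A bin was called higher at 1 time when its reads differed at least 2-fold and the interval of its share of reads lay beyond 0.5. Under this rule 1438 bins were higher at 24 hpi (14.7% of those compared) and 102 at 12 hpi (1.04%), and these shares are the background for all counts below. The interval leaves 2.5% on each side, more than the 1.04% called toward 12 hpi. Whether these 102 bins go beyond counting error was not tested. Scaled to the median ratio, the calls were 117 and 440. Of the bins higher at 12 hpi, 60 had 6 reads at 12 hpi and 0 at 24 hpi, the lowest counts that can be called, and 256 of those higher at 24 hpi had 0 and 6. Of the bins higher at 24 hpi, 1100 (76.5%) also had 6 or more reads in the C/EBPβ library of 48 hpi, which the rule did not use, against 73.6% of the bins not called, so this share was near that of the other bins. Of the bins higher at 12 hpi, 17 (16.7%) did. Few reads limit the calls, since a bin with 6 reads in 1 library needs 0 in the other, a bin with 10 at most 2, and a bin with 20 at most 8. At the edge of the rule, 2550 bins had exactly 6 reads in their higher library, with means of 3.25 at 12 hpi and 5.27 at 24 hpi, and the 5241 bins just outside it, with 5, had means of 2.80 and 3.94.

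**Figure D1:**
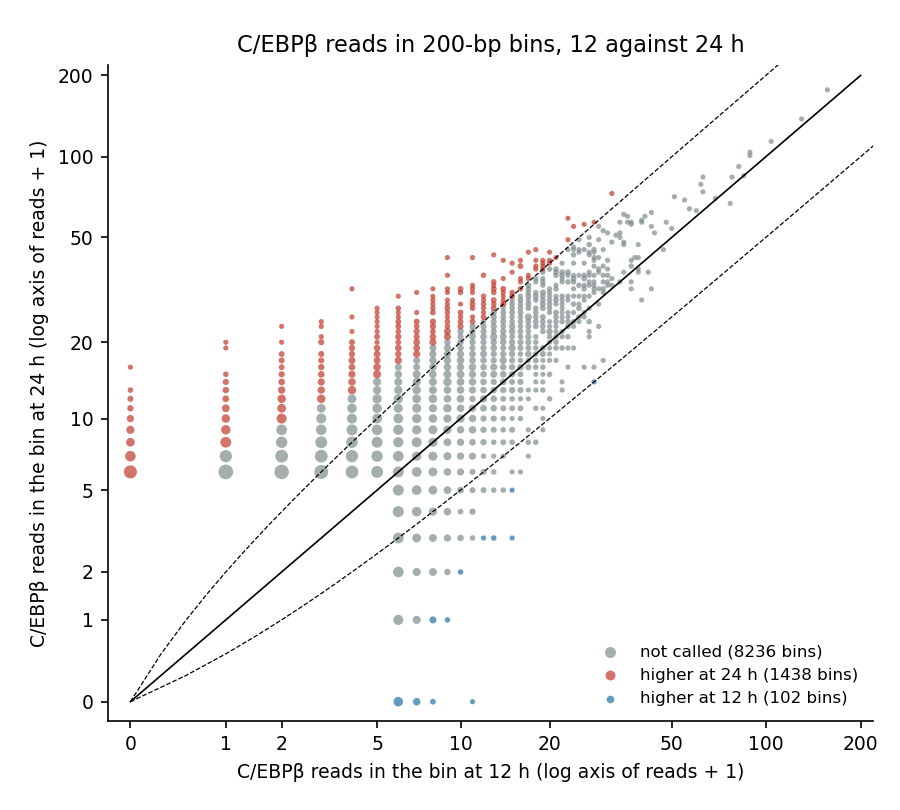
Reads per 200-bp bin at 12 hpi (x) and 24 hpi (y), both on log axes of reads plus 1. Each point stands for all bins with that pair of counts and grows with their number, the solid line marks equal counts and the dashed lines 2-fold differences. Most points above 10 reads lie over the line of equal counts, and most of the 102 bins called higher at 12 hpi (blue) have few reads.

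The sequences of 12 bins are shown because they carry the contrast between sites occupied at both times and sites that differ. They are of the plus strand of mm9 (NCBIM37), 5′ to 3′, and capitals mark matches, on either strand, to the consensus letters TTGCNNAA (C/EBP), TGATGCAA (C/EBP-ATF), GAGGAAGT (PU.1), TGACTCA (AP-1), TGTGGTT (RUNX), TCCCNNGGG (EBF1) and TGACGTCA (CRE). No run of letters can match both C/EBP and C/EBP-ATF. A match describes the letters only. Each label gives the gene of the nearest TSS, and the intron or exon it names can belong to another gene. The first 3 bins are among the 12 regions with the most reads, the next 5 among the 12 with the highest lower bound of the ratio toward 24 hpi, the next 3 lie near interleukin genes and Id3, and the last is among the 12 regions led by a bin higher at 12 hpi.
Cdkl4, intron, chr17:80960201-80960400: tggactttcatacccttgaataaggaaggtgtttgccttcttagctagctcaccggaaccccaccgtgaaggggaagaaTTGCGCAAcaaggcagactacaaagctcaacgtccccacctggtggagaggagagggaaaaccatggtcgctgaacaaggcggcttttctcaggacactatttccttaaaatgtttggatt
Emilin2, intron, chr17:71649801-71650000: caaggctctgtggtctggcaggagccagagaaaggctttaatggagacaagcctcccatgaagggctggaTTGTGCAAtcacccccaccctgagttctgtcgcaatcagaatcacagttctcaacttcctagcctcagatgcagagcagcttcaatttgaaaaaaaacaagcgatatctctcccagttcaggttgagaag
Ctr9, intergenic, chr7:118167801-118168000: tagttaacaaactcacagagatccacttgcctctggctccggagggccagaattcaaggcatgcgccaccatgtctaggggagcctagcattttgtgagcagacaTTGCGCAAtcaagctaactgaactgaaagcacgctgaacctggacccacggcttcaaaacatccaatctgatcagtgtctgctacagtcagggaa
Pdzd3, intron, chr9:44067201-44067400: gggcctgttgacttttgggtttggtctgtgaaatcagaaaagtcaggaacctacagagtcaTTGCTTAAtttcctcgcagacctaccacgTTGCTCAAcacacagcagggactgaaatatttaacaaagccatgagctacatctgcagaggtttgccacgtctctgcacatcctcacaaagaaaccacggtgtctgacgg
Gm4694, intergenic, chr9:123849601-123849800: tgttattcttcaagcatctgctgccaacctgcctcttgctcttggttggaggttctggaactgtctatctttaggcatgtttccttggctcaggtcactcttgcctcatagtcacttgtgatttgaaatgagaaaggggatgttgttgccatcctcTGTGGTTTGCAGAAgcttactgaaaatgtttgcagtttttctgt
Clec4n, coding exon, chr6:123194401-123194600: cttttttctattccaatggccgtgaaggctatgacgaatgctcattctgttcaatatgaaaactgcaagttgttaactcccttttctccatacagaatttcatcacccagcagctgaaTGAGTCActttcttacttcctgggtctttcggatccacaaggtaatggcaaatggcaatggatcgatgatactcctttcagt
Stk35, intergenic, chr2:129677401-129677600: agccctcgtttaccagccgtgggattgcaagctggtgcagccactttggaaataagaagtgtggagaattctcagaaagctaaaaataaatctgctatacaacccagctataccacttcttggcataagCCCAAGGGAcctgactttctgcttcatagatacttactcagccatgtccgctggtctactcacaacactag
Mx1, intergenic, chr16:97684601-97684800: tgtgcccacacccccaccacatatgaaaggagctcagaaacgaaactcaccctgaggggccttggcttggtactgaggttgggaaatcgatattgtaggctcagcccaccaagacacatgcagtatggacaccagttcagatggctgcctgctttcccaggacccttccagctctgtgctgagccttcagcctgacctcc
Il15, intron, chr8:84907401-84907600: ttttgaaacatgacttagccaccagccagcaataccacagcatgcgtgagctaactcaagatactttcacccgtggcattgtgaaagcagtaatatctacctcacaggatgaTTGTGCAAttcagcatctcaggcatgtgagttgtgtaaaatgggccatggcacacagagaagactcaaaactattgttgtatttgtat
Il1b, intergenic, chr2:129199001-129199200: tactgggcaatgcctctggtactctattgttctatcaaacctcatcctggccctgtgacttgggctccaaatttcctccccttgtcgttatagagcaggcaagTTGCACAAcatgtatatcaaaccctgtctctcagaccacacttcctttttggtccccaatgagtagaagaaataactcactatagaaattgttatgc
Id3, intergenic, chr4:135673001-135673200: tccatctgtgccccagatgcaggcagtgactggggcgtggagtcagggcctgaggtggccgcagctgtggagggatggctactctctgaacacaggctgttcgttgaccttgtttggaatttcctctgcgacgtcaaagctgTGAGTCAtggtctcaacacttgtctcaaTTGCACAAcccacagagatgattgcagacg
Bach2, intron, chr4:32521601-32521800: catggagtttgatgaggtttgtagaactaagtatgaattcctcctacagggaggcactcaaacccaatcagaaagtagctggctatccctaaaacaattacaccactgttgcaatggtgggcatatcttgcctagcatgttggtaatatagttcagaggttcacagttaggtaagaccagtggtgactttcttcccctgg

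The sites with the most C/EBPβ reads had many reads at both times. Of the 12 regions with the most reads, 7 had 6 or more reads in all 18 libraries, PU.1 and 0 hpi included, and lay on chromosomes 2, 9 and 17. They are set aside here as regions recovered with every antibody at every time. There were 77 such bins in all, with a ratio of 1.19 (1.13 to 1.26). The other 5 were near Kcne3, a potassium channel subunit, Cdkl4, a kinase, Emilin2, an extracellular matrix glycoprotein, Ctr9, a subunit of the PAF1 elongation complex, and Ndel1, a dynein regulator, and all 5 held a C/EBP consensus. In the intron of Kcne3, 3.89 kb from the transcription start site (TSS), C/EBPβ had 10 reads at 0 hpi, 24 at 3 hpi, 63 at 12 hpi, 84 at 24 hpi and 77 at 48 hpi. In the Cdkl4 bin the same libraries had 42, 44, 69, 70 and 101 reads. In the Emilin2 bin they had 11, 32, 55, 69 and 80. The ratio of 24 to 12 hpi was 1.33 (0.95 to 1.88) at Kcne3, 1.01 (0.717 to 1.44) at Cdkl4, 1.25 (0.868 to 1.82) at Emilin2, 1.39 (0.958 to 2.04) at Ctr9 and 1.44 (0.962 to 2.18) at Ndel1. All 5 ratios were above 1 and each interval included 1. The bin near Tal1, which is described with the other lineages, had as many reads in sum as that of Ndel1 and was called higher at 24 hpi, with a ratio of 2.28 (1.49 to 3.57). The Cdkl4, Emilin2 and Ctr9 bins had 1, 0 and 1 reads of PU.1 at 0 hpi and 2, 1 and 1 at 12 hpi, whereas those of Kcne3 and Ndel1 had 2 and 3 at 0 hpi and 8 and 14 at 12 hpi.

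In the 12 regions with the highest lower bound of the ratio toward 24 hpi, the 12 hpi count was 0 to 4. For the last place 6 bins with 0 and 11 reads had an equal bound, of which that near Zdhhc14 was taken. By the difference in reads other bins were further apart, such as that near Tal1 with 32 and 73, and their 12 hpi counts were higher. The bin 7.75 kb upstream of the Pdzd3 TSS, a PDZ domain gene, went from 4 reads at 12 hpi to 32 at 24 hpi, an 8-fold ratio (2.84 to 31.1). It had 19 C/EBPβ reads at 3 hpi and 23 at 48 hpi, and 32, 14 and 23 of C/EBPα at 3, 12 and 24 hpi. The 12 hpi library was thus the low one among C/EBPβ libraries after induction at this site. A bin 129.6 kb within Trps1, a GATA-type repressor, had 1 read at 12 hpi and 20 at 24 hpi, and 8, 6 and 16 at 0, 3 and 48 hpi. The bin 12.8 kb from Gm4694 had 1 and 19, with 10 and 21 at 3 and 48 hpi.

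Clec4n and Mx1 are myeloid and antiviral genes with sites that reached 6 C/EBPβ reads only at 24 and 48 hpi. Clec4n encodes dectin-2, a macrophage receptor for fungal mannans, and the bin over one of its coding exons had 1, 1, 0, 13 and 20 C/EBPβ reads at 0, 3, 12, 24 and 48 hpi. C/EBPα had 1 and 3 reads there at 12 and 24 hpi, PU.1 had 12 and 16, and PU.1 was already at 9 at 0 hpi. This bin holds an AP-1 consensus and no C/EBP consensus. Mx1 encodes an interferon-induced GTPase, and the bin 0.188 kb upstream of its TSS had 2, 1, 0, 13 and 17 C/EBPβ reads in the same order, with 4 C/EBPα reads and 2 PU.1 reads at 24 hpi.

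The bin with the highest lower bound of the ratio lay 51.2 kb downstream of the TSS of the kinase gene Stk35, and had 0 reads at 12 hpi and 16 at 24 hpi. It had 6 reads at 3 hpi and 1 at 48 hpi, so that 24 hpi was high against all other times. C/EBPα had 10 reads there at 12 hpi, 11 at 24 hpi and 1 at 48 hpi. A bin 93.0 kb from the same TSS had 0, 2, 23 and 16 C/EBPβ reads at 3, 12, 24 and 48 hpi. Over the 12 regions of this kind, 11 had 6 or more C/EBPβ reads at 48 hpi, 8 had 6 or more C/EBPα reads at 12 hpi, 4 had 6 or more PU.1 reads at 12 hpi and 2 held a C/EBP consensus.

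Regions are named by the bin with the most reads of their run. The 12 regions whose leading bin had the highest lower bound toward 12 hpi had 7 or 8 reads at 12 hpi and 0 at 24 hpi. Among the compared bins 17 had 7 and 0 reads and so an equal bound. Not all that lead a region are among the 12, and position decided between them. Called bins beside a bin with more reads do not lead a region, and the highest lower bound toward 12 hpi was in one of these, a UTR bin 0.155 kb from the TSS of Tnfsf13, which encodes the B cell factor APRIL. It had 0, 1, 11, 0 and 7 C/EBPβ reads in time order, and the adjoining bin had 8 and 5 at 12 and 24 hpi. By the difference in reads, called bins with 28 and 14 or with 15 and 3 reads at 12 and 24 hpi were further apart. An intron of Bach2, a repressor that keeps B cells from the myeloid fate, had 3, 14, 8, 0 and 1 C/EBPβ reads at 0, 3, 12, 24 and 48 hpi. C/EBPα had 31, 12 and 2 reads there at 3, 12 and 24 hpi, so that both factors had their highest count at 3 hpi. In an intron of Mef2c, a transcription factor of B and myeloid cells, 7 C/EBPβ reads at 12 hpi and 0 at 24 hpi stood beside 8 and 5 of PU.1 and 0 of C/EBPα at both times. In an intron of Sc4mol, an enzyme of cholesterol synthesis, 8 reads at 12 hpi stood against 0 at 24 hpi and 5 at 48 hpi. Of these 12 regions none had 6 or more C/EBPβ reads at 48 hpi, and 1 held a C/EBP consensus.

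The other libraries describe the same bins with reads that the rule did not use, but the classes come from the compared counts. From 12 to 24 hpi C/EBPα reads in the compared bins went the other way, from 89075 to 66687, a ratio of 0.749 (0.741 to 0.756), and PU.1 reads from 58143 to 45807, a ratio of 0.788 (0.778 to 0.798). These falls were not particular to the compared bins. Over the genome, bins with 6 or more reads fell from 10374 to 6672 for C/EBPα and from 41291 to 28028 for PU.1. The C/EBPα ratio was 0.825 (0.803 to 0.847) at bins where C/EBPβ was higher at 24 hpi, 0.738 (0.730 to 0.746) at bins not called and 0.581 (0.494 to 0.681) at bins where C/EBPβ was higher at 12 hpi. These 3 intervals do not overlap, but they pool reads, so a few bins can carry a class. Bins with fewer C/EBPα reads at 24 hpi were 52.3%, 60.5% and 50% of the 3 classes, which is another order. Bins with more C/EBPα reads at 24 hpi were 33.0%, 27.1% and 23.5%. For PU.1 the corresponding ratios were 0.819 (0.793 to 0.846), 0.782 (0.772 to 0.793) and 0.828 (0.699 to 0.981). From 3 to 48 hpi the ratio of C/EBPβ itself was 3.88 (3.76 to 3.99) at bins higher at 24 hpi, 2.45 (2.42 to 2.48) at bins not called and 1.21 (1.02 to 1.44) at bins higher at 12 hpi. The rule partly sets this order, since a call toward 24 hpi needs few reads at 12 hpi and more at 24 hpi.

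The bins called higher at 24 hpi had fewer reads of each factor at 0 hpi than bins not called, but the rule partly sets this order. A call needs few reads at 12 hpi, and 20.3% of the called bins reached 6 reads there, against 50.4% of the bins not called. The shares that follow are thus a description. At 0 hpi 4.31% of them had 6 or more C/EBPβ reads, against 8.05% of the bins not called, and at 3 hpi 23.0% against 32.3%. C/EBPα at 60 min reached 6 reads in 31.8% against 44.2%, and at 12 hpi in 46.3% against 53.4%. At 24 hpi the 2 shares were 42.8% and 43.2%. Bins higher at 12 hpi had lower means than bins not called in every library but C/EBPβ at 12 hpi, with 3.00 C/EBPβ reads on average at 48 hpi and 2.47 at 3 hpi.

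**Figure D2:**
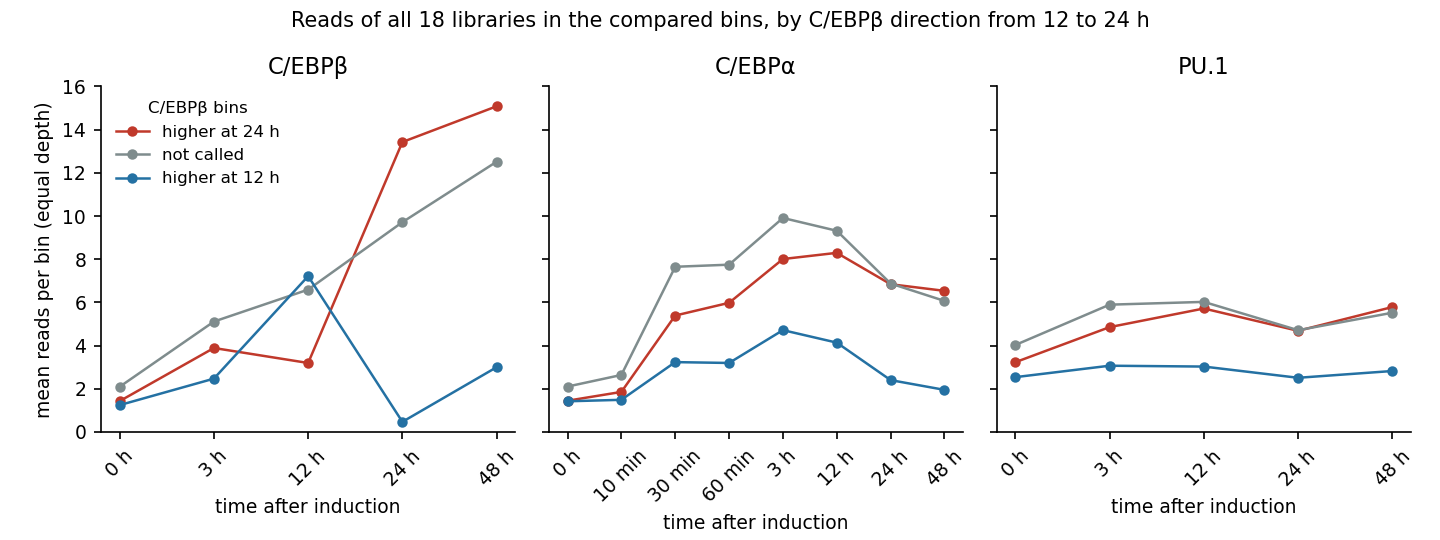
Mean reads per bin in each of the 18 libraries, thinned to equal depth, for bins higher at 24 hpi (red, 1438 bins), not called (gray, 8236) and higher at 12 hpi (blue, 102). Times are evenly spaced and not to scale, and the C/EBPβ points of 12 and 24 h are those that chose the classes. C/EBPβ is highest at 48 h in the red and gray classes, while C/EBPα is highest at 3 h in the gray class and at 12 h in the red class.

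Because the rule picks bins by the values it compares, the ratio was also taken over bins chosen in libraries that took no part in it. In the 13949 bins with 6 or more C/EBPβ reads at 48 hpi it was 1.62 (1.61 to 1.64), and in the 10374 bins with as many C/EBPα reads at 12 hpi 1.5 (1.48 to 1.51). It was 1.40 (1.38 to 1.42) over the 4973 bins chosen in C/EBPβ at 3 hpi, 1.30 (1.27 to 1.34) over the 1113 bins of C/EBPβ at 0 hpi and 1.29 (1.27 to 1.31) over the 25188 bins of PU.1 at 0 hpi. Over bins chosen in C/EBPα at 0 hpi it was 1.33 (1.30 to 1.36). The 3 sets chosen at 0 hpi gave the lowest ratios among those of the 16 libraries. The next lowest, PU.1 at 3 hpi with 1.34 (1.32 to 1.36), overlapped that of C/EBPα at 0 hpi, so the order is not firm. All sets kept the bins of all 18 libraries, and only 6.48% of the PU.1 bins of 0 hpi were among the compared bins. These sets were added after the data had been seen.

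The ratio also followed the reads of earlier libraries. Among the compared bins this order is partly set by the rule, since 72.6% of the bins with 0 to 2 C/EBPβ reads at 3 hpi reached 6 reads only at 24 hpi, against 11.7% of those with 12 or more. It was therefore taken over the bins chosen in C/EBPβ at 48 hpi, an alternative added after the data had been seen. This choice partly sets the order for C/EBPβ too, since bins with 6 or more reads at 48 hpi and few at 0 or 3 hpi rose after those times. Among the bins chosen at 48 hpi the ratio was 1.83 (1.80 to 1.86) at the 7614 bins with 0 to 2 C/EBPβ reads at 3 hpi. It was 1.38 (1.35 to 1.41) at the 866 bins with 12 or more. For C/EBPα at 60 min it was 1.80 (1.77 to 1.83) and 1.48 (1.45 to 1.5). The 700 bins with 6 or more C/EBPβ reads before induction had a ratio of 1.32 (1.29 to 1.36), and the other 13249 one of 1.68 (1.66 to 1.70). The 700 include the 77 bins with 6 or more reads in all 18 libraries, whose ratio was 1.19 (1.13 to 1.26). Those 77 bins held 2450 of the 10079 reads at 12 hpi, so part of the contrast comes from regions recovered with every antibody.

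Pre-existing PU.1 binding went with a lower ratio as well, over the same bins chosen at 48 hpi. At the 1728 bins with 6 or more PU.1 reads both at 0 and at 12 hpi, or pre-existing PU.1 sites, the ratio was 1.45 (1.42 to 1.49). The 77 bins with 6 or more reads in all 18 libraries are among these too. At the 2036 bins that reached 6 PU.1 reads at 12 hpi but not at 0 hpi it was 1.69 (1.65 to 1.73), and at the 9979 bins with PU.1 at neither time 1.66 (1.64 to 1.68). Bins with PU.1 and no C/EBPα at 12 hpi, with 1.74 (1.68 to 1.81), had the same ratio as bins with neither factor, with 1.74 (1.71 to 1.77). Bins with C/EBPα and no PU.1 had 1.58 (1.55 to 1.60), and bins with both factors 1.53 (1.51 to 1.56). By the reads of 12 hpi the ratio was thus lower with C/EBPα, whether or not PU.1 was there.

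**Figure D3:**
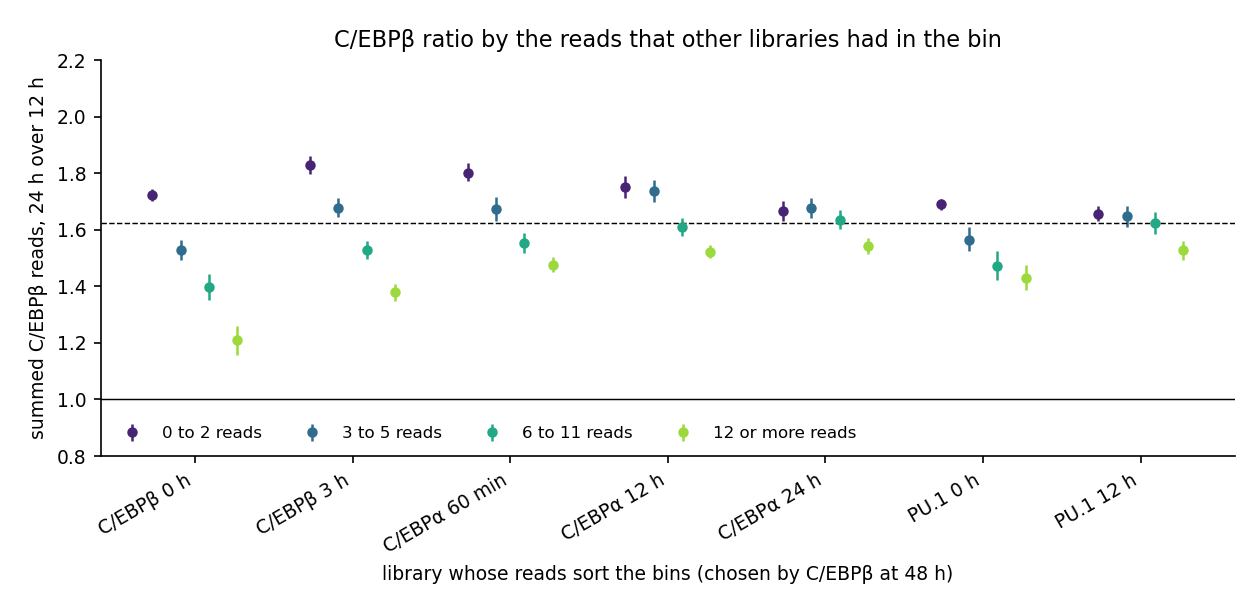
Summed C/EBPβ reads at 24 over 12 h (y) in the 13949 bins with 6 or more C/EBPβ reads at 48 h, sorted by how many reads another library had in the bin (color) for 7 libraries (x). Bars are exact 95% intervals that cover counting error, the dashed line is the ratio of all these bins (1.62) and the solid line is 1. For C/EBPβ at 3 h the ratio runs from 1.83 at 0 to 2 reads to 1.38 at 12 or more, an order that choosing bins at 48 h partly sets.

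The bins higher at 12 hpi held fewer C/EBP letters than the others, and those higher at 24 hpi held more AP-1 letters. These classes come from the compared counts, so the rule partly sets them. Of the bins higher at 24 hpi 20.3% reached 6 reads at 12 hpi, against 50.4% of those not called. The shares were not taken over bins chosen in a library outside the comparison, so the contrasts are a description. Their intervals treat bins as independent, although neighbouring bins share fragments. The C/EBP consensus occurred in 40.1% (37.5% to 42.6%) of the bins higher at 24 hpi, in 36.3% (35.3% to 37.4%) of those not called and in 12.7% (6.96% to 20.8%) of those higher at 12 hpi, against 9.28% of all bins of the genome. Bins of the same GC content as the compared ones held it in 7.86%. For the bins higher at 12 hpi the interval includes the 9.28% of all bins and the 7.28% of bins with their GC content. The order of the first pair depends on the call rule, since with a 3-fold rule the shares were 35.7% and 37.1%. The AP-1 consensus occurred in 11.3% (9.68% to 13.0%) of the bins higher at 24 hpi and in 7.53% (6.97% to 8.12%) of those not called, against 3.14% of all bins. Of the 787 bins with the AP-1 letters 162 (20.6%) were higher at 24 hpi, and of those without 14.2%. The EBF1 consensus went the other way, with 3.41% (2.53% to 4.48%) and 4.88% (4.43% to 5.37%), although these intervals overlap slightly. The C/EBP-ATF letters, which a C/EBP-ATF4 dimer can bind, did not differ between classes beyond their intervals, with 4.24% (3.26% to 5.42%) and 4.74% (4.29% to 5.22%), but over all compared bins were 8.72 times as common as in bins of the same GC content.

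For PU.1 and RUNX letters the intervals of these classes overlapped. PU.1 letters occurred in 6.82% (5.57% to 8.24%) and 6.19% (5.68% to 6.74%), and RUNX letters in 8.21% (6.84% to 9.75%) and 8.27% (7.68% to 8.89%). They are present in 1.2% and 4.73% of all bins. The CRE letters TGACGTCA were rare, with 31 compared bins. The TTGCGCAA palindrome, which the Cdkl4 and Ctr9 bins hold, was found in 2.16% (1.47% to 3.05%) of bins higher at 24 hpi and in 3.44% (3.05% to 3.85%) of those not called. Of the 315 bins with it 9.84% were higher at 24 hpi, against 14.7% of all compared bins. TTGCACAA, the most common form with 831 bins, went the other way, with 10.4% (8.83% to 12.1%) and 8.27% (7.68% to 8.88%), intervals that overlap slightly. All pairs of inner bases were examined, and TTGCGCAA was picked, after the values had been seen. These contrasts, too, are a description of classes that the rule partly sets.

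**Figure D4:**
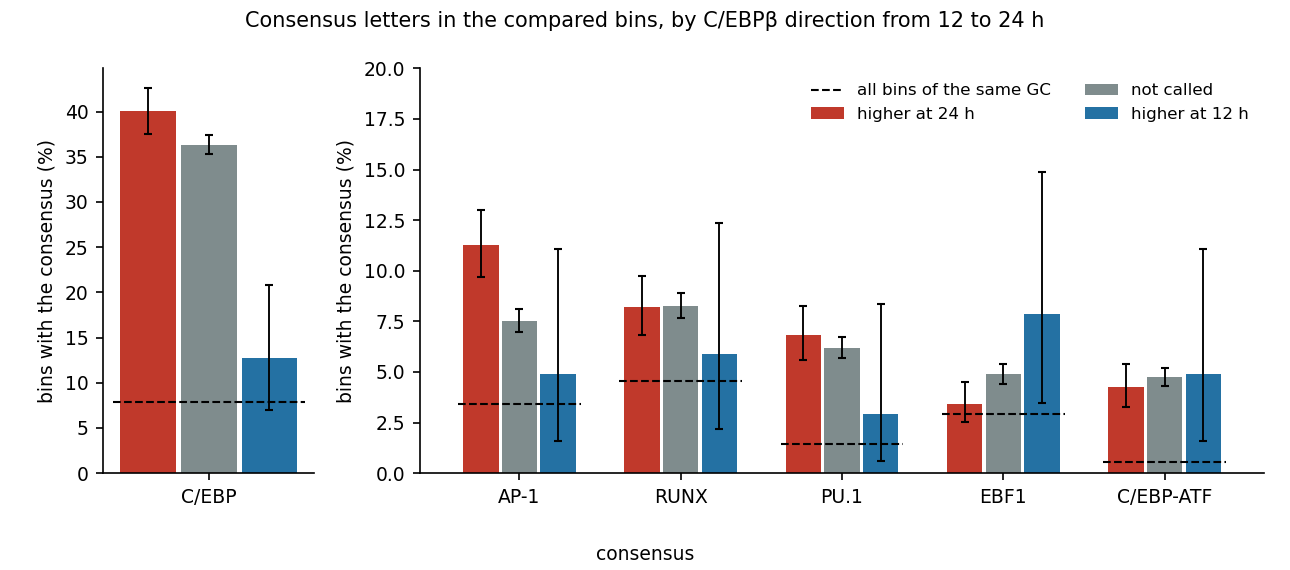
Share of bins with each consensus (y, percent) for bins higher at 24 hpi, not called and higher at 12 hpi, with exact 95% intervals. The dashed lines give the share among all genome bins of the same GC content, and the panels have different y axes. C/EBP letters are in 40.1%, 36.3% and 12.7% of the classes, and AP-1 letters in 11.3%, 7.53% and 4.90%. The classes come from the compared counts, so the rule partly sets them.

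The distance of the bins from genes differed between the classes by less than the intervals, and the share in coding exons did not. Coding exons held 7 of the 102 bins higher at 12 hpi, or 6.86% (2.80% to 13.6%), against 2.23% (1.93% to 2.58%) of those not called and 1.53% (0.961% to 2.31%) of those higher at 24 hpi. Within 1 kb of the TSS of a protein-coding gene lay 10.4% (8.90% to 12.1%) of the bins higher at 24 hpi, 11.2% (10.5% to 11.9%) of those not called and 10.8% (5.51% to 18.5%) of those higher at 12 hpi. The median distance over all compared bins was 16616.5 bp. Introns held 46.4% of them and 48.1% lay between genes.

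Gene lists describe where the changes fell. A bin was given to the nearest TSS within 100 kb, which covered 8624 bins and 3898 genes. Of these bins 14.6% were higher at 24 hpi and 1.06% at 12 hpi, and their ratio was 1.66 (1.64 to 1.68). Of 25 lists 24 had more summed reads at 24 hpi, and their intervals lay above 1 for 23. The interval lay above 1.66 for 1 list only, the surface and secreted markers of macrophages. The lists were chosen with earlier results of these data known, and no list was tested. Of the bins near genes 53.1% reached 6 reads only at 24 hpi, so shares of called bins and ratios over them describe bins that the rule partly chose. Over the 12285 bins near genes that were chosen in C/EBPβ at 48 hpi the ratio was 1.62 (1.60 to 1.63), and again the interval of 1 list, the macrophage markers, lay above it.

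Macrophage markers had 24 bins near 11 of 15 genes. At 24 hpi 9 bins (37.5%) at 7 genes were higher and none at 12 hpi, and the sum went from 81 to 214 reads, a ratio of 2.64 (2.04 to 3.46). Of these bins 17 (70.8%) reached 6 reads only at 24 hpi. Over the 37 bins near these genes chosen in C/EBPβ at 48 hpi the sum went from 98 to 218 reads, a lower ratio of 2.22 (1.74 to 2.85). The median log2 ratio of the bins was 1.64, against 0.81 for all bins near genes. The bins with the most reads were near Itgam (CD11b), with 8 and 18 reads, and Lyz2 (lysozyme), with 10 and 13, and neither was called. The called ones had few reads. Siglec1 (CD169) had 3 and 12 reads in its best bin, with 3 of 4 bins higher at 24 hpi. Csf1r, the receptor of CSF-1, had 2 and 11, Msr1, a scavenger receptor, 1 and 11, and Ctss (cathepsin S) 0 and 9. Against this direction, Clec7a (dectin-1) had 9 and 4 reads. At the TSS of Emr1 (F4/80) C/EBPβ had 2, 2, 6, 11 and 24 reads at 0, 3, 12, 24 and 48 hpi, so 48 hpi was the highest.

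Lectin and Cd300 genes had 43 bins, and their ratio did not stand apart from that of all bins near genes. At these C-type lectin, Siglec, galectin and Cd300 genes 13 bins (30.2%) were higher at 24 hpi and 1 at 12 hpi, but 25 of the 43 (58.1%) reached 6 reads only at 24 hpi. Over the 73 bins chosen in C/EBPβ at 48 hpi the ratio was 1.70 (1.47 to 1.97), an interval that includes the 1.62 of all such bins. The site with the most reads, 0.161 kb upstream of the TSS of Clec12a, an inhibitory receptor, had 34 reads at both times and 19 at 0 hpi. Lgals3 (galectin-3) had 4 and 20 reads and Clec2d 3 and 20. Clec4n, described above, is of this list too, and Cd300lf, with 10 and 3, was not called.

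Cytokine genes had 12 of 52 bins higher at 24 hpi (23.1%) and 1 at 12 hpi (1.92%), which was near Il15. Over bins chosen at 48 hpi their ratio was 1.71 (1.49 to 1.96), an interval that includes that of all such bins. The intron of Il15, whose product maintains natural killer cells, had 24 and 55 reads, with 2 at 0 hpi, 27 at 3 hpi and 60 at 48 hpi. The site 2.23 kb upstream of Il1b, which encodes interleukin-1β, had 3, 11, 15, 40 and 46 reads in time order, and PU.1 had 16 and 24 there at 12 and 24 hpi. Il6 had 24 and 35 reads 64.8 kb upstream, which is not past the call rule. Csf1, which encodes a growth factor of macrophages, had 3 and 16 reads in its best bin and 3 of 6 bins called. Il1rn had 17 and 16 reads in its best bin near the TSS, yet 3 of its 6 bins were higher at 24 hpi.

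Cytokine receptors, Toll-like receptors with their partners, and chemokine genes had ratios that did not stand apart from that of all bins. The first list holds colony-stimulating factor and interleukin receptors and also those of interferon-γ and TGF-β, such as Ifngr2 and Tgfbr2. The second also holds genes such as Cd14 and Irak2. Over bins chosen in C/EBPβ at 48 hpi the ratios were 1.79 (1.54 to 2.08) for the first list and 1.61 (1.36 to 1.90) for the second. For chemokines and their receptors the ratio was 1.78 (1.51 to 2.10), and these intervals overlap and include 1.62. The bin in an intron of Il17ra, a subunit of the interleukin-17 receptor, had 0, 21, 11, 42 and 51 C/EBPβ reads in time order, and 73 and 37 of C/EBPα at 12 and 24 hpi. It was thus low at 12 hpi for C/EBPβ and not for C/EBPα. Of the 44 bins of the cytokine receptor list 7 (15.9%) were higher at 24 hpi, near the 14.7% of all bins, and 1 (2.27%), near Ifngr2, at 12 hpi. The list of Toll-like receptors and their partners had 2 of 35 (5.71%), near Tlr2 and Cd14, and 1 (2.86%), near Tlr2, at 12 hpi. The bin 43.6 kb upstream of Tlr2, with 36 and 60 reads, was not called. Chemokine genes had 6 of 40 (15%), and at Ccl2, a monocyte attractant, 24 and 35 reads were counted.

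The shares of called bins at NF-κB, feedback and lipid genes were above the 14.6% of all bins near genes, as was that of cell-cycle genes with 20.8%, but their ratio intervals over bins chosen at 48 hpi included that of all bins. Of 35 bins at NF-κB genes and inhibitors 8 (22.9%) were higher at 24 hpi, among them those of Tnfaip3 (A20), with 14 and 32 reads, and Tnip1, with 13 and 29. Of 53 bins at feedback and survival genes 11 (20.8%) were, with 8 and 28 reads at Stat3, 6 and 18 at Mcl1, and 2 and 14 at Gadd45b. In this list 1 bin (1.89%) was higher at 12 hpi. Lipid genes had 13 of 55 (23.6%), and 1 (1.82%) higher at 12 hpi. A bin near Ptgs2, which encodes cyclooxygenase-2, had 20 and 41 reads and was called. The adjoining bin had 7 and 0 and was called higher at 12 hpi, so calls there depend on the bin edge. A site near Plin2, a lipid droplet protein, had the same sum as the bin with 20 and 41, with 30 and 31, and was not called.

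The loci of the factors themselves included strong sites that were not called. The bin 71.3 kb downstream of the Cebpb TSS had 8, 10, 32, 35 and 72 C/EBPβ reads in time order, a ratio of 1.09 (0.658 to 1.82) from 12 to 24 hpi, and it is among the bins with 6 or more reads in all 18 libraries. Over the 13 bins near Cebpb 3 were higher at 24 hpi, and their sum was 115 and 214. At Sfpi1, which encodes PU.1, the bin 1.56 kb into the gene had 9, 9, 29, 38 and 81 reads with 1 PU.1 read at 12 and 24 hpi. Cebpd and Gfi1, which the annotation does not type as protein-coding and which were looked up after the values had been seen, had 1 and 8 reads (Cebpd, 2922 bp downstream of the TSS) and 21 and 33 reads (Gfi1, upstream). The Cebpd bin was called higher at 24 hpi, as were 2 weaker Gfi1 bins with 1 and 9 reads at the TSS and 0 and 7 reads upstream. Of the AP-1 genes Fos had 11 and 28 reads 16.7 kb downstream of its TSS, and 3 of the 21 bins of the list (14.3%) were higher at 24 hpi.

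Genes of the B lineage had called bins in both directions. Of 33 bins at B-lineage transcription factors 5 (15.2%) were higher at 24 hpi, near the 14.6% of all bins near genes, and 3 (9.09%) at 12 hpi, against 1.06%. Over the 35 bins chosen in C/EBPβ at 48 hpi the sum went from 159 to 306 reads, a ratio of 1.92 (1.58 to 2.35), which includes the 1.62 of all such bins. Over the 33 compared bins it was 1.62 (1.35 to 1.95), and over those within 20 kb of a TSS 1.24. Id3, an inhibitor of E proteins, had 6 and 27 reads, Ikzf1 (Ikaros) 8 and 23, and Myb 27 and 34. Pax5, the factor that maintains B cell identity, had 2 and 12. The bins higher at 12 hpi were 1 each at Bach2, Lef1 and Ikzf1. The 7 bins at pre-B cell receptor and recombination genes had 34 and 63 reads and none was called. The 2 bins at MHC class II genes had 10 and 7 reads, and that near H2-DMa, with 6 and 0, was called higher at 12 hpi. Over the 6 bins of this list chosen in C/EBPβ at 48 hpi the sum went the other way, from 10 to 17 reads, a ratio of 1.70 (0.735 to 4.15).

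The lists of T cell markers and of erythroid and mast cell markers had strong sites as well. The bin 21.1 kb upstream of the TSS of Tal1, a regulator of erythroid and mast cell development, had 4, 22, 32, 73 and 100 C/EBPβ reads in time order, with 8 and 15 of C/EBPα and 0 of PU.1 at 12 and 24 hpi. The bin near Cd2, which is in the T cell list, had 4, 14, 28, 57 and 58. Both were higher at 24 hpi. Over the few bins of these lists, 3 for T cells and 5 for erythroid and mast cells, the ratios of 1.89 (1.32 to 2.76) and 1.79 (1.31 to 2.45) were within the range of the myeloid lists. All 3 bins of the first list were near Cd2 and 4 of the 5 of the second near Tal1, so the ratios describe single genes rather than lineages.

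**Figure D5:**
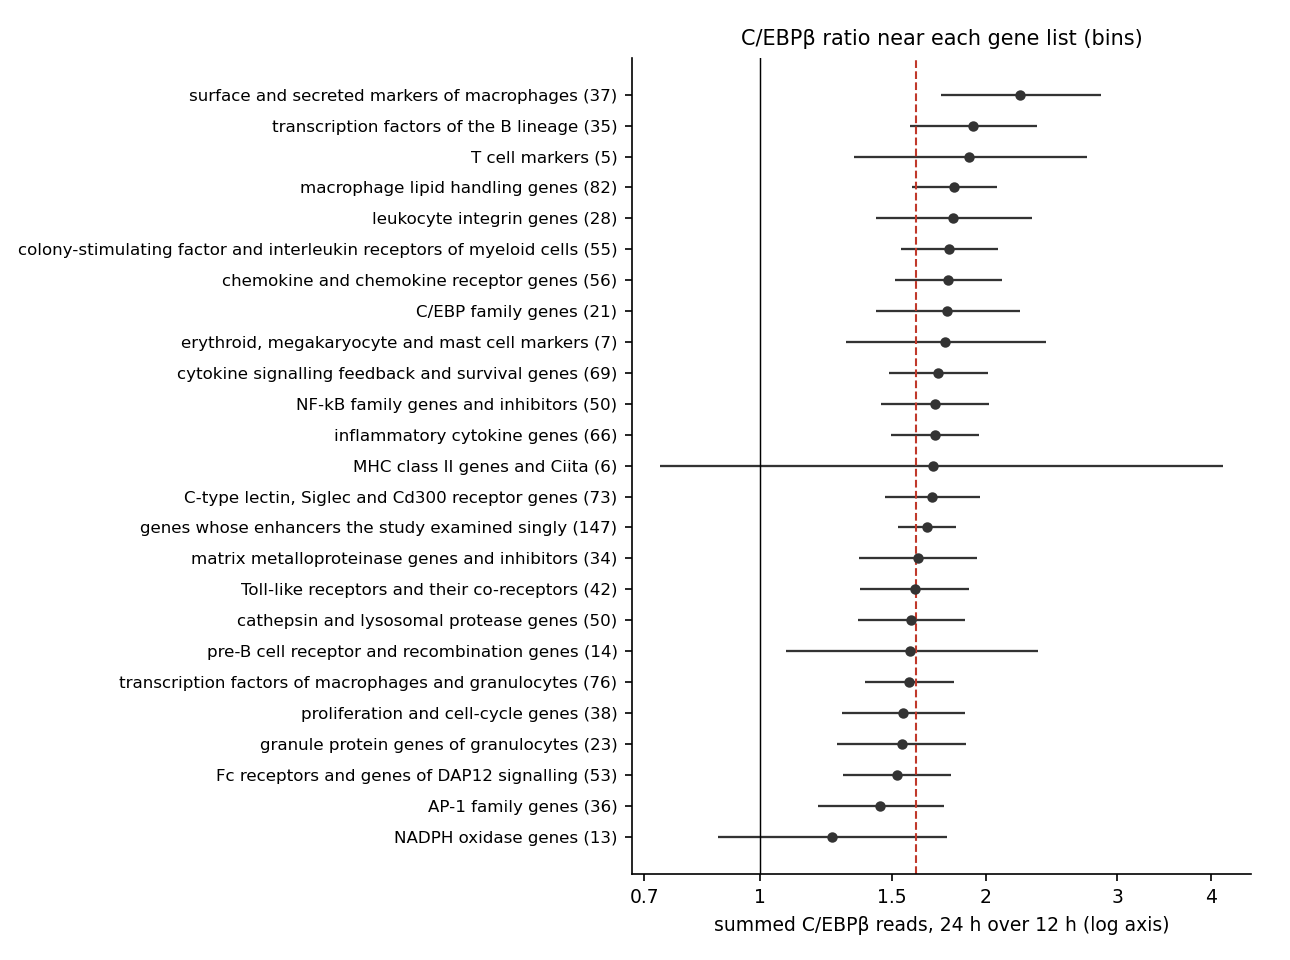
Summed C/EBPβ reads at 24 over 12 h (x, log axis) for the bins nearest the genes of 25 lists, chosen by 6 or more C/EBPβ reads at 48 h, with the number of bins in brackets and exact 95% intervals. The dashed line marks all such bins within 100 kb of a TSS (1.62) and the solid line 1. The interval of the macrophage markers (1.74 to 2.85) lies above the dashed line, and those of all other lists cross it.

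Some genes had many bins, and those named here were chosen after their values had been seen. Sfi1, which encodes a centrosomal protein, was nearest to 206 bins in 80 runs, with 1624 reads at 12 hpi, 1617 at 24 hpi and 1241 at 0 hpi. Its bins thus had nearly equal counts, and leaving them out moved the summed ratio of all compared bins to 1.69. Among other genes with many bins, Xdh, which encodes xanthine oxidoreductase, had 5 of 13 bins higher at 24 hpi and 62 and 146 reads. Pde4b, a phosphodiesterase, had 4 of 16 with 100 and 182, and Foxp1, a transcription factor of B cells and monocytes, had 2 of 15 with 69 and 132. Others had few such calls, as Sgms1 with 1 of 18 and Gm11084 with 0 of 13, and Gm15319 had 2 of 9 higher at 12 hpi. Of all compared bins 14.7% were higher at 24 hpi, so calls at genes with many bins lay on both sides of that share.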

How the data were processed

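The deposited files hold, per the labels and the methods, 1 line per aligned read (chromosome, start, end, strand). These are read positions made by the authors, and the unit was recorded as other. The authors called bases with Illumina software, and their methods keep a read only with a perfect match at a single place of mm9 (ELAND or Bowtie), and each sequence once. The files of 5 C/EBPα libraries still held repeats of position and strand (0.0898% to 2.53% of reads), which were removed here. The submitters' processing notes also name HOMER. The aligner of each library is not given in the sources used here, and no authors' peaks were used.

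Read counts were made from the deposited positions with Python 3.11.15, numpy 2.4.6, pandas 2.3.3 and scipy 1.17.1. The 2 C/EBPβ libraries held no such repeats and had 40-base reads. All 18 libraries, of 2824293 to 24236183 such reads on chromosomes 1 to 19, were thinned to 2824293. No input library was used. The counting and call steps were tested on simulated data. Log2 ratios used 1 added read. TSSs of protein-coding genes came from GENCODE vM1, and sequences and consensus searches used NCBIM37, the same build. GC classes were 2% wide.

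Alternatives covered the read minimum, bin size, shift, scaling, thinning and call rule. The members, gene lists and named regions were chosen with earlier results of these data known. The regions named were the 12 with the most reads, the 12 in each direction whose leading bin, the one with the most reads of its run, was called with the highest lower bound of the ratio, and per list up to 4 genes with the most reads in 1 bin. Other list genes were named after their values were seen.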

Additional observations from a re-analysis of the deposited data

Results flagged for a closer look

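From 12 to 24 hpi the reads of the 3 factors at the same sites went in different directions. In the 13949 bins with 6 or more C/EBPβ reads at 48 hpi, chosen in a library outside the comparison, C/EBPβ had a ratio of 1.62 (1.61 to 1.64), C/EBPα of 0.785 (0.777 to 0.792) and PU.1 of 0.808 (0.800 to 0.817). In the 4973 bins chosen in C/EBPβ at 3 hpi the ratios were 1.40, 0.667 and 0.744. Over the genome at equal depth, bins with 6 or more reads fell from 10374 to 6672 for C/EBPα and from 41291 to 28028 for PU.1. The lower reads of these factors were thus not particular to C/EBPβ sites. For each factor, binding cannot be told apart from the yield of its precipitation. The difference between the factors was not tested, since each ratio rests on 1 library a time, and antibodies differ between factors.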

How the results depend on the processing

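No paired analysis was possible because each factor and time has 1 library, and no replicate could be left out for the same reason. Scaling changed the direction. Scaled to the median ratio of the compared bins, which sets the typical bin to no change, 117 bins were higher at 24 hpi and 440 at 12 hpi, the summed ratio was 0.952 and the median log2 ratio 0.15, while scaling to background reads gave a summed ratio of 1.70.

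Minima of 4, 8 and 10 reads gave 32455, 5686 and 3730 compared bins. The summed ratio was 1.47 at 4 reads. The bins higher at 12 hpi were 25 at 8 reads and 9 at 10 reads, with 859 higher at 24 hpi at 10 reads. In 400-bp bins there were 14998 compared bins, 398 higher at 12 hpi and a summed ratio of 1.56. A 2-fold rule without the interval called 4914 and 653 bins. The summed ratio was 1.61 without thinning, 1.74 without bins bound at 0 hpi, and 1.70 with 1 bin per run. It was 1.69 without bins of all 18 libraries or without those nearest Sfi1, 2 alternatives chosen after seeing the data.

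The C/EBP consensus share in bins higher at 24 hpi and not called was 50.8% and 46.9% with 50 bp added on each side, and 42.8% and 42.3% with 1 bin per run. With a 3-fold rule it was 35.7% and 37.1%, the opposite order. With 50 bp added the AP-1 shares were 14.3% and 10.5% and the EBF1 shares 5.42% and 6.84%. Scaled to background reads, the C/EBPα ratio at bins not called was 0.727. The 48 to 3 hpi C/EBPβ ratios were then 4.04 at bins higher at 24 hpi and 2.55 at bins not called, and 2.52 at the latter without bins bound at 0 hpi. The PU.1 ratios became 0.772 and 0.737. Within 500 bp of a TSS lay 6.54% and 7.54% of the 2 classes, and within 2 kb 16.2% and 16.4%. Restricted to 20 kb, the ratios of the lists were 1.24 for B-lineage factors, 2.2 for lipid genes, 2.12 for feedback genes, 2.05 for cell-cycle genes and 1.24 for erythroid and mast cell genes, and B-lineage factors had 2.07 at 10 or more reads. Depth limits calls to bins with 6 or more reads.
Of the other summary values 176 stayed within set limits, which were 1.5 times for counts, the 95% interval for ratios and shares, and the quartile deviation of the bins for the median log2 ratio. Within these, bins higher at 24 hpi ranged from 1084 at 8 reads to 2020 in 400-bp bins. Of the single regions, 356 ratios stayed within their intervals and 1 did not.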
